A study of Rattus norvegicus with 6 samples.

Results

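Macrophages of the ileum were read from single nuclei of 6 male Sprague-Dawley rats, 3 with severe acute pancreatitis (SAP) and 3 controls (CON), with 1 library per rat. A nucleus was taken as a macrophage-marker nucleus when it held UMIs (unique molecular identifiers, 1 per captured transcript) of at least 3 of the 7 genes C1qa, C1qb, C1qc, Csf1r, Mrc1, Cd163 and Adgre1. This rule found 463 of the 40970 nuclei that passed quality control, 148, 34 and 76 in CON replicates 1, 2 and 3 and 7, 22 and 176 in SAP replicates 1, 2 and 3. The rats were wild type, 6 weeks old and acclimatized for 7 days. In SAP rats 3% sodium taurocholate, a bile salt, was infused backwards into the pancreatic duct at 0.1 mL per 100 g of body weight, and CON rats had the same opening of the abdomen without infusion. All rats were fasted after surgery and killed at 24 h. Visible lymphoid patches were avoided and mesenteric fat was trimmed when the ileum was taken. A model of 1 time point in young males of 1 strain limits what the comparison covers.

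Macrophages of the gut wall take up dying cells and microbes and are renewed in large part from blood monocytes. CSF1R is the growth factor receptor on which most of them depend, C1qa, C1qb and C1qc encode the chains of the complement recognition protein C1q, and Cd163 and Mrc1 encode scavenger receptors of tissue macrophages. Adgre1 encodes F4/80. The transcription factors PU.1 (Spi1) and MAF are known regulators of macrophage identity and of the C1q genes.

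C1qa had UMIs in more of these nuclei than any other rule gene, and C1qb lies near it on the same chromosome. To show what their control regions hold, the 250 bases before the RefSeq start of C1qa (GRCr8, chr5:154419934-154420183, minus strand) and of C1qb (GRCr8, chr5:154407828-154408077, minus strand) are shown on the gene's own strand. The count tables were made on another build, and these positions belong to GRCr8 alone. Capitals mark GAGGAA, the ETS core as bound by PU.1, and TGCTGA, a MAF half-site, or their reverse complements TTCCTC and TCAGCA.
C1qa: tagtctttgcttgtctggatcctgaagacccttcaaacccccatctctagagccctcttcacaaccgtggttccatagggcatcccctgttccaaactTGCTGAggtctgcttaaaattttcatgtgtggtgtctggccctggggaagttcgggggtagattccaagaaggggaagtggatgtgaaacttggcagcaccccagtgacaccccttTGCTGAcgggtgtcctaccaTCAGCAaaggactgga
C1qb: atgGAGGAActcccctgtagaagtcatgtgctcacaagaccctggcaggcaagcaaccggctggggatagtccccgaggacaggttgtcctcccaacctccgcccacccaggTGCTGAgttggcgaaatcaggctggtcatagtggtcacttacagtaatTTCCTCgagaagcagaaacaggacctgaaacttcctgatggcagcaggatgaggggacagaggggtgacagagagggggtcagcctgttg
The C1qa stretch holds TGCTGA at 3 places on either strand and GAGGAA at 0, and the C1qb stretch holds GAGGAA at 2 and TGCTGA at 1. Of the 7 rule genes 6 matched a RefSeq entry, 4 of them with GAGGAA and 3 with TGCTGA in the same window. Over all 33469 promoters 23.3% hold the first motif and 15.1% the second, so such matches are common and are given as a description of the sequence.

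The label holds for some of these nuclei and not for others. In all 6 libraries the 7 rule genes were higher than in the other nuclei, by the way the nuclei were chosen, and so were some macrophage genes that the rule did not use. C1qa UMIs were found in 88.8% of the macrophage-marker nuclei and in 5.65% of the other nuclei, at median depths of 2605 and 1757 UMIs. C1qc followed with 84.4% against 3.12%, Csf1r with 51.6% against 1.11%, C1qb with 47.9% against 1.08%, Cd163 with 38.4% against 0.867%, Mrc1 with 27.9% against 1.17% and Adgre1 with 19.2% against 0.501%. Nuclei just outside the rule, with 2 rule genes, numbered 726 and held a median of 2 rule UMIs, while the 277 nuclei just inside it, with 3 rule genes, held a median of 5. Zeb2, a transcription factor of myeloid cells, was at 196 CPM (UMIs scaled to a total of 1000000) in the nuclei with 2 rule genes, 388 in those with 3 and 543 in those with 4. Stab1, a scavenger receptor of tissue macrophages, was at 25.8, 63.5 and 106 CPM in the same nuclei.

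The genes with the highest median ratio to the other nuclei of the same library, the rule genes left out and at a mean of at least 100 CPM, were led by Stab1 (median ratio 19.5, range over libraries 6.47 to 124), Dnase1l3, which encodes a secreted DNase (19.2, 5.82 to 32.2), Aoah, whose enzyme inactivates bacterial endotoxin (15.8, 9.03 to 40.4), and Cybb, the oxidase subunit of the respiratory burst (13.8, 2.61 to 27.8). Pid1, Cfd, Fgd2, Adgrg5, Acp5, Plxna4, Plxnc1, Pla2g7, Arhgap22, Il6r and Zeb2 made up the rest of the first 15, with median ratios of 12.4 down to 8.46. Of these 15 genes Plxnc1 alone was not higher in all 6 libraries, with a lowest ratio of 0.992. Of the 2609 genes at a mean of at least 100 CPM other than the rule genes, 232 (8.89%) were higher in all 6 libraries. Of the 22 regulators and receptors of macrophages 11 were higher in all 6 libraries, among them Spi1 (93.5 against 8.53 CPM on average), Sirpa (84.9 against 8.47), Mitf (113 against 24.1) and Mertk, a receptor for dying cells (160 against 55.1). Maf was at 230 CPM against 241.4, so this regulator did not mark the nuclei. Of the 15 resident and perivascular macrophage genes 1 was higher in all 6 libraries, of the 15 monocyte genes 2, and of the 22 lipid, scavenger and lysosomal genes 5. Of the 15 Fc receptor and phagocytosis genes 9 were higher in all 6 libraries, among them Tyrobp (200 against 18.5 CPM) and Dock2 (273 against 100.2). A gene with 0 UMIs in SAP replicate 1, which had 7 nuclei, could not be higher in all 6 libraries. The median ratio was over 2 for 17 of the 22 regulators and receptors and 9 of the 15 resident genes. It was over 2 for 5 of the 15 monocyte, 10 of the 22 lipid and 14 of the 15 Fc receptor genes. Of all 2614 genes at a mean of at least 100 CPM, 190 (7.27%) had such a ratio. These ratios describe nuclei chosen on macrophage genes and were not tested.

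The rule was met more often in deeper nuclei. The share of nuclei that met it was 0.667% at 1200 to under 2000 UMIs, 1.06% at 2000 to under 4000, 3.08% at 4000 to under 8000 and 8.63% at 8000 or more, with 168, 128, 83 and 84 nuclei. The deepest held 110735 UMIs. Over the same bins the level of Zeb2 in the macrophage-marker nuclei was 1448, 776, 556 and 225 CPM, and that of Mertk was 449, 201, 97.0 and 56.0 CPM, against 54.1, 58.4, 54.7 and 43.2 CPM of Mertk in the other nuclei. In the other nuclei Zeb2 was at 89.8 CPM in the lowest bin and 39.7 CPM in the highest, so the gap was wide in shallow nuclei and narrower in the deepest for both genes. This did not hold for every macrophage gene. The ratio to the other nuclei was 15.8 in the lowest bin and 14.6 in the highest for Tyrobp, and 9.01 and 8.63 for Cd68. When every nucleus was thinned to 1200 UMIs, 196 still held 3 rule genes.

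**Figure D1:**
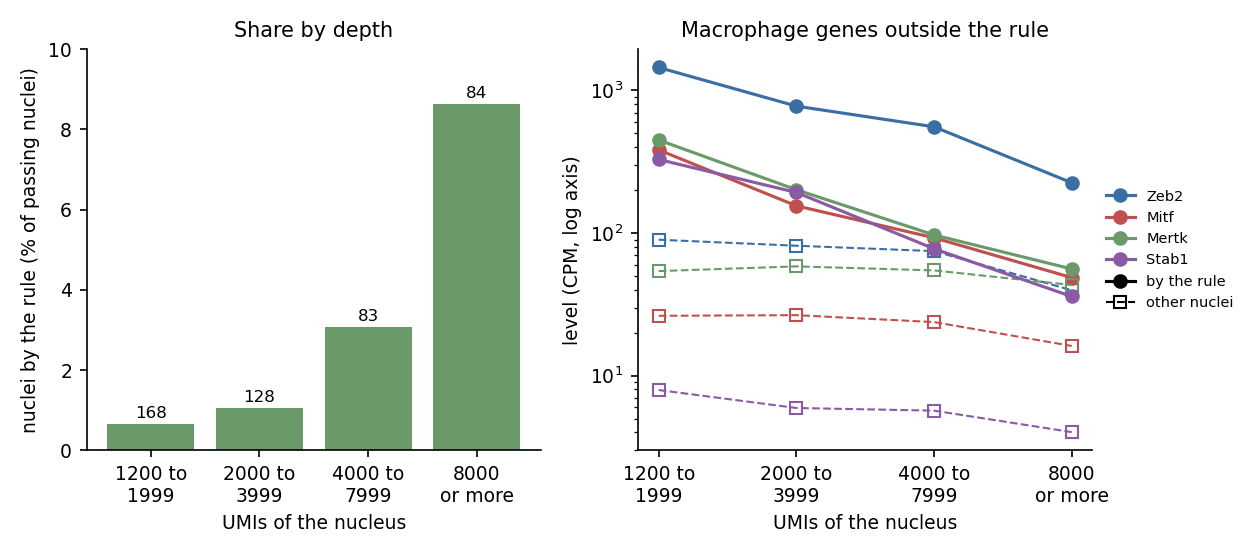
Share of passing nuclei that met the macrophage rule (left, percent, number of nuclei above each bar) and levels of 4 macrophage genes outside the rule (right, CPM, log axis) by UMIs of the nucleus. Filled circles are macrophage-marker nuclei and open squares the other nuclei. The share climbs from 0.667% to 8.63% while Zeb2 goes from 1448 to 225 CPM.

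Genes of other cell types were present in many of these nuclei. At least 3 of 15 epithelial markers had UMIs in 440 of them (95.03%), against 98.7% of the other nuclei, and the most abundant, the Paneth cell defensin Defa24, averaged 7816 CPM. Leaving the epithelium aside, 209 of the 463 nuclei (50.0%, 2.94% and 36.8% of those in CON, then 42.9%, 50.0% and 52.3% of those in SAP) held at least 3 markers of 1 other class. T cell markers were found so in 139 nuclei, smooth muscle markers in 91, B and plasma cell markers in 72, fibroblast markers in 70, endothelial markers in 54, neutrophil markers in 7 and glial or neuronal markers in 6. Markers of dendritic cells, which share genes with macrophages, were found so in 70. Of the mast cell markers Tpsab1 was at 0 UMIs in every library and Cpa3 at 8 in all, while Kit, which other cells also use, was at 130, and mast cell protease genes outside that list led sub-cluster 5, described with the sub-clusters. The part of free RNA or of paired nuclei in these UMIs was not tested. Barcodes carry running numbers in place of sequences, and 5398 such names occur in at least 2 libraries, which says nothing of shared nuclei.

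Sub-clusters of the 463 nuclei, made without the rule genes, differed in how far macrophage genes or genes of other cells led them. Sub-cluster 0 held 87 nuclei at a median of 1541 UMIs and combined Csf1r (446 CPM) and C1qa (1567 CPM) with Cd163 (573 CPM), Mrc1 (280 CPM), Mertk (637 CPM), Stab1 (522 CPM) and Zeb2 (1988 CPM). Its leading genes included Plxna4, a semaphorin receptor (1497 CPM against 101 in the other macrophage-marker nuclei), Ms4a7 (325 against 25.1), Fap (217 against 11.4) and Timd4, a receptor for dying cells on long-lived tissue macrophages (108 against 7.44). Lyve1 (6.37 CPM) and F13a1 (0 CPM), genes of perivascular macrophages, were hardly seen there. Sub-cluster 1 held 76 nuclei at a median of 1859.5 UMIs and had C1qa at 1727 and C1qc at 1109 CPM, but Cd163 at 120, Mrc1 at 42.0, Mertk at 108 and Stab1 at 66.0 CPM. Its leading genes included Itgax, which encodes the integrin CD11c (120 CPM against 18.9), the Fc receptor gene Fcgr3a (114 against 14.1), the chemokine gene Cxcl16 (120 against 18.9), the lectin gene Clec4a (114 against 12.97), Pld4 (234 against 44.4) and Arhgap22 (294 against 48.3). C1qa, C1qc, Cd163 and Mrc1 belong to the rule, so their levels here describe nuclei chosen on them, and C1qa UMIs were also found in 96.5% of the nuclei of sub-cluster 3 and 93.0% of those of sub-cluster 5. MHC class II genes were present in both, with Cd74 at 1669 and 947 CPM and Ciita, the master regulator of that class, at 752 and 324 CPM. At least 3 markers of another class, the epithelium not counted, were found in 13.8% and 6.58% of these nuclei, epithelial markers summed to 7313 and 20055 CPM (17245 and 16448 CPM in the rest of the macrophage-marker nuclei), and 79.3% and 69.7% kept 3 rule genes after thinning.

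The 2 profiles were spread unevenly over the libraries. Sub-cluster 0 took 13, 5 and 30 nuclei of CON replicates 1, 2 and 3 and 1, 0 and 38 of SAP replicates 1, 2 and 3. Sub-cluster 1 took 36, 22 and 7 nuclei of CON and 2, 1 and 8 of SAP, so that it made up 64.7% of the 34 nuclei of CON replicate 2 and 4.55% of both SAP replicates 2 and 3. Shares of clusters were not tested between groups, since the genes that define them may differ with the condition and SAP replicate 1 gave 7 nuclei.

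The other sub-clusters held genes of other cells among their leading genes and kept no cell type name. Macrophage regulators and receptors were not low in all of them, since they summed to 3571, 3675 and 6260 CPM in sub-clusters 4, 7 and 9, against 7664 CPM in sub-cluster 0 and 3028 CPM in sub-cluster 1. Sub-cluster 3 (57 nuclei) was led by Paneth genes, with Mmp7 at 490 CPM against 80.8 and Defa9 at 26593 against 4665. Sub-cluster 6 (43 nuclei, 15 of them from SAP replicate 2) was led by genes of enterocytes, with Apoa4 at 730 against 12.2 CPM and Apoa1 at 4159 against 330. Sub-cluster 4 (44 nuclei, 34 of them from SAP replicate 3) had Acod1, the itaconate enzyme of activated macrophages, as its first gene by ratio, at 117 against 2.87 CPM in 13 nuclei, beside B cell genes, with Pax5 at 757 against 27.9 CPM and Ebf1 at 1415 against 130. Sub-cluster 5 (43 nuclei, 38 of them from CON replicate 1) was led by Mcpt10, of the mast cell protease family, at 161 against 12.0 CPM in 23 nuclei, and by genes of cytotoxic and intraepithelial lymphocytes, with Gzma at 314 against 26.7 CPM, Gzmb at 262 against 24.9 and Itgae at 198 against 44.1. Mcpt2 (110 against 10.7 CPM in 7 nuclei) and Mcpt9 (222 against 34.7 CPM in 31 nuclei) were also among its 10 leading genes. The list of mast cell markers summed to 123 CPM there against 41.4, of which Kit, which other cells also use, made up 96.8 CPM. T cell markers summed to 1454 against 684 CPM, and 81.4% of its nuclei held at least 3 of them. Sub-cluster 2 (59 nuclei) had Spink4, a goblet cell gene, at 1624 against 199 CPM and Fabp4 at 432 against 17.5. Its first gene by ratio was Car3, at 136 against 0.946 CPM in 5 nuclei, and Cfd, at 313 against 43.0 CPM, was also among its 10 leading genes. Sub-clusters 7 (25 nuclei) and 8 (15 nuclei) carried genes of fibroblasts and of smooth muscle, with Igfbp3 at 966 against 41.3 CPM and with Des at 3528 against 48.8 CPM. In sub-clusters 2 to 8 from 15.8% to 40.0% of nuclei kept 3 rule genes after thinning.

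Sub-cluster 9 stood apart for genes of monocytes and neutrophils. It held 14 nuclei, 9 of them from SAP replicate 3, and of these nuclei 64.3% kept 3 rule genes after thinning. S100a9 was at 10604 CPM against 97.0 and S100a8 at 8062 against 89.9, each in 6 nuclei. Vcan, a monocyte gene, was at 1347 CPM and F13a1 at 360 CPM, beside Mrc1 at 702 and Cd163 at 607 CPM. UMIs of Vcan were in 28.6% of these nuclei, of F13a1 in 50.0%, of Mrc1 in 78.6% and of Cd163 in 71.4%. At least 3 neutrophil markers were found in 35.7%, and 1 of them, Csf3r, was at 702 CPM against 7.15 in 5 nuclei. Such sums do not show whether the same nuclei held all of these genes. Over all macrophage-marker nuclei S100a9 was at 2.78, 0 and 0 CPM in CON and 670, 32.0 and 734 CPM in SAP, from 3, 0 and 0 and 10, 4 and 800 UMIs. All SAP libraries lay above all CON libraries, SAP replicates 1 and 3 far above SAP replicate 2. In the other nuclei S100a9 was at 37.3, 1.23 and 3.56 CPM in CON and 554, 2.80 and 70.2 CPM in SAP, where the groups overlapped. No neutrophil marker had enough UMIs across libraries to pass the filter of the fit reported, with all 6 of them. S100a9 was seen in 29 of the 463 nuclei, and 1 alternative called it in the interaction, the one without SAP replicate 1, whose other nuclei were nearly as high. Resolutions of 0.4 and 1.2 gave 6 and 12 sub-clusters in place of 10. All 87 nuclei of sub-cluster 0 fell into 1 group of 117 at 0.4, with 7 of the 14 nuclei of sub-cluster 9, and 85 into 1 group at 1.2, while all 76 nuclei of sub-cluster 1 shared a group of 131 at 0.4 with 46 of the 57 nuclei of sub-cluster 3, led by Paneth genes, and 45 stayed together at 1.2.

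**Figure D2:**
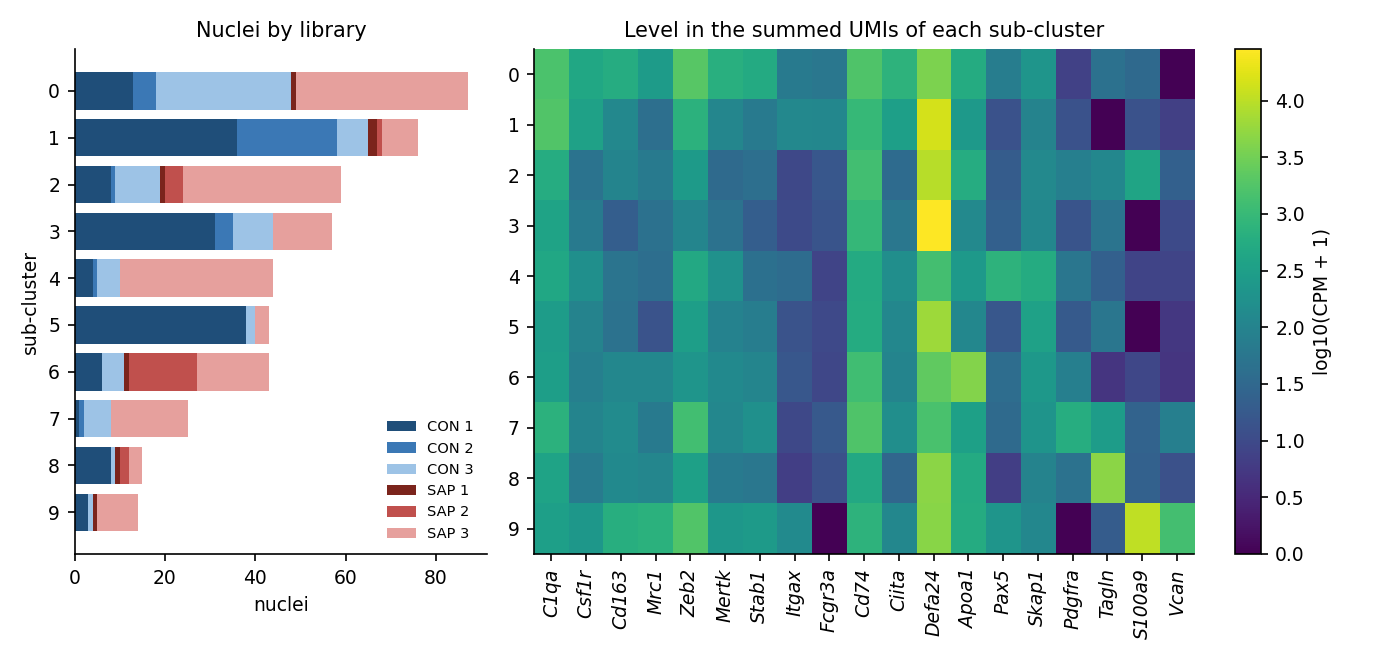
Number of macrophage-marker nuclei of each library in the 10 sub-clusters (left, nuclei) and levels of marker genes in the summed UMIs of each sub-cluster (right, log10 of CPM plus 1). Sub-clusters 0 and 1 have C1qa at 1567 and 1727 CPM and differ in Cd163 (573 and 120 CPM), and sub-cluster 9 has S100a9 at 10604 CPM.

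Whether SAP changed how many macrophage nuclei the ileum held was asked first, over shares of passing nuclei per rat. Macrophage-marker nuclei made up 1.60% (exact 95% binomial interval 1.35 to 1.88), 0.543% (0.376 to 0.758) and 0.903% (0.712 to 1.13) of the nuclei in CON replicates 1, 2 and 3. In SAP replicates 1, 2 and 3 they made up 0.220% (0.0883 to 0.452), 0.369% (0.231 to 0.558) and 2.23% (1.92 to 2.58). The 2 lowest shares and the highest share were all of SAP rats, and the groups overlapped. The means were 1.02% ± 0.538 (SD, n = 3) in CON and 0.939% ± 1.12 (SD, n = 3) in SAP, a difference of -0.08 percentage points that was not larger than the spread between rats (exact two-sided permutation test, p = 0.9). With 3 rats against 3 this exact test cannot go below p = 0.1. The intervals cover counting error only. CON replicate 2 and SAP replicate 1 list barcodes under 1000 UMIs and the other libraries do not, and among the 4 others the mean shares were 1.25% in CON and 1.30% in SAP. After thinning to 1200 UMIs the shares were 0.638%, 0.431% and 0.392% in CON and 0.125%, 0.0670% and 0.874% in SAP, again with both the lowest and the highest in SAP. Fewer macrophages and fewer macrophage transcripts per nucleus cannot be told apart in such shares.

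**Figure D3:**
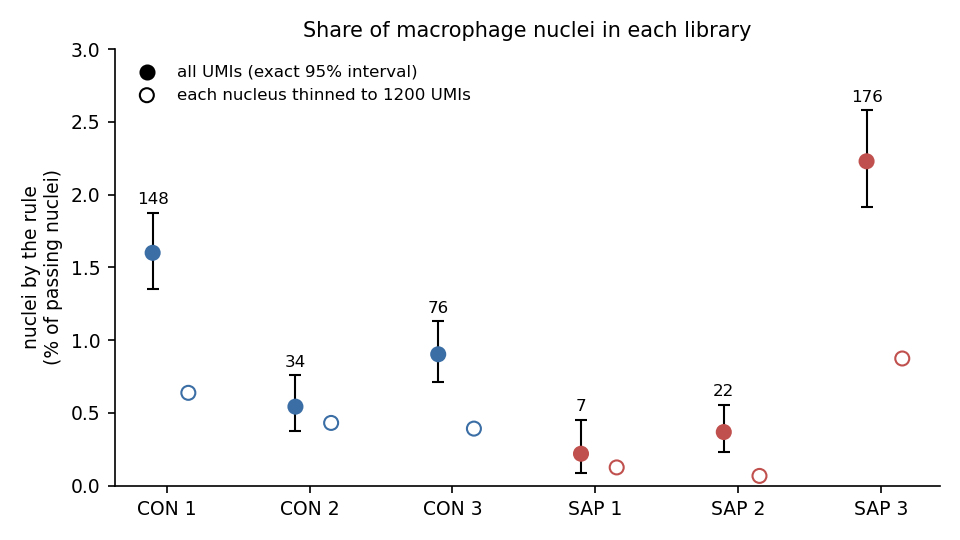
Macrophage-marker nuclei as a percent of passing nuclei in each library, CON in blue and SAP in red, with exact 95% binomial intervals and the number of nuclei. Open circles give the share after each nucleus was thinned to 1200 UMIs. SAP replicate 3 is highest on both scales (2.23% and 0.874%) and the other SAP libraries lowest.

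The rule genes themselves varied as much within groups as between them. C1qa was at 698, 1873 and 572 CPM in CON and 1205, 399 and 384 CPM in SAP, and Csf1r at 117, 438 and 169 CPM in CON and 335, 55.9 and 102 CPM in SAP. The highest level of both was in CON replicate 2, which also had the fewest nuclei with markers of another class. Cd163 was at 80.7, 317 and 139 CPM in CON and 268, 95.9 and 133 in SAP, and Mrc1 at 58.4, 30.2 and 118 in CON and 201, 55.9 and 95.5 in SAP. C1qb, C1qc and Adgre1 also overlapped between the groups. These genes chose the nuclei and are given without a test.

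Expression was then compared between SAP and CON on UMIs summed over the macrophage-marker nuclei of each rat, 1078584, 66207 and 337563 UMIs in CON and 14936, 125170 and 1089178 in SAP. In SAP replicate 1, with 7 nuclei, 1 UMI is worth 67.0 CPM. Egr1, an immediate early transcription factor induced by growth factors and stress, was the only gene called higher in SAP of 6069 tested (0.0165%), and 0 were called lower (0%), by edgeR's quasi-likelihood test at an adjusted p under 0.05 and a log2 fold change of at least 0.5. At an unadjusted p under 0.05 there were 386 genes (6.36%), 253 higher and 133 lower, and DESeq2 called 4 higher and 0 lower. Egr1 was at 14.8, 15.1 and 26.7 CPM in CON and 67.0, 280 and 137 CPM in SAP, which rests on 16, 1 and 9 UMIs in CON and 1, 35 and 149 in SAP. All SAP libraries were above all CON libraries, by 3.26 on the log2 scale (SE 0.50, adjusted p = 0.0201, edgeR). The value of SAP replicate 1 is 1 UMI, under a floor of 3 UMIs (201 CPM there), so that the lack of overlap rests on that UMI. Egr1 was also higher among the other nuclei, at 7.87, 24.1 and 26.2 CPM in CON and 82.9, 37.1 and 96.4 CPM in SAP, and the 2 differences were not shown to differ (interaction 1.10, SE 0.76, adjusted p = 1.00, edgeR). The call was lost in 4 of 12 other fits that tested Egr1, among them those without SAP replicate 1 (adjusted p = 0.0940, edgeR), without CON replicate 1 (adjusted p = 0.355) and with 2 rule genes in place of 3 (adjusted p = 0.795). In 5 more fits, the one without SAP replicate 3 among them, Egr1 had too few UMIs to be tested, and 149 of its UMIs came from that library.

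Next in order, and not called, were genes of absorptive enterocytes. Apoa1, an apolipoprotein, was at 262, 136 and 548 CPM in CON and 2812, 2940 and 918 CPM in SAP, and at 525, 109 and 1754 and 5507, 3928 and 1270 CPM in the other nuclei. The groups did not overlap in the macrophage-marker nuclei, with a log2 fold change of 2.67 (SE 0.54, adjusted p = 0.0789, edgeR). Slc39a4, a zinc importer, had a log2 fold change of 2.55 with the same adjusted p, and Clca4 had 1.83. These genes were as high or higher in the other nuclei of the same rats in most libraries, and the part of enterocyte RNA in these sums was not tested. S100a6, a calcium-binding protein gene on the monocyte list, was at 126, 30.2 and 145 CPM in CON and 201, 415 and 419 CPM in SAP (log2 fold change 1.72, SE 0.39, adjusted p = 0.189, edgeR). Lower in SAP with the smallest p, and not called, were St8sia6 (log2 fold change -2.07), Asb2 (-1.40), Esrrg (-1.47), LOC120095180 (-1.66) and Ephb2 (-1.38).

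None of the 13 macrophage gene lists held a called gene. Genes with no overlap between the groups made up 5.92% of all 6069 tested genes where SAP was higher and 8.29% where SAP was lower, and the median log2 fold change of all genes was -0.01. Of the 22 regulators and receptors 15 were tested, 8 above and 7 below 0, with a median of 0.07 and 0 without overlap. Zeb2 was at 324.5, 982 and 782 CPM in CON and 402, 391 and 491 in SAP, and Runx1 at 263, 302 and 332 and at 268, 415 and 324. The 9 tested Fc receptor and phagocytosis genes had a median of -0.06 and 0 without overlap. Of the 4 tested genes of resident and perivascular macrophages 1, Selenop, lay without overlap, higher in SAP (median of the list -0.29). Of the 5 tested monocyte genes S100a6 and Thbs1 lay higher without overlap (median 0.40), while Plac8 (346, 529 and 367 CPM against 402, 527 and 515) did not.

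Of the 11 tested genes of lipid handling, scavenging and lysosomes, Lgals3 and Ctsb, a lysosomal protease, lay higher in SAP without overlap (median of the list 0.44). Of 28 inflammatory genes 8 had enough UMIs to be tested, with a median of 0.21 and 0 without overlap. Tnf counted 1, 0 and 0 UMIs in CON and 0, 1 and 11 in SAP, and Il6 2, 0 and 0 and 0, 0 and 0, so that both were near the limit of detection. Sod2, a mitochondrial superoxide dismutase induced by NF-kB, was at 34.3, 15.1 and 47.4 CPM in CON and 0, 152 and 140 CPM in SAP (log2 fold change 1.85, adjusted p = 0.363, edgeR). Of the 9 tested glucocorticoid response genes 6 lay above 0, with a median of 1.04, and Mt2A, a metallothionein, and Errfi1 lay higher without overlap. Mt2A was at 23.2, 15.1 and 56.3 CPM in CON and 67.0, 208 and 99.2 in SAP (log2 fold change 1.99, adjusted p = 0.363, edgeR). Mt2A, Errfi1 and Thbs1 each counted 1 UMI in SAP replicate 1, under the floor of 3, so that their lack of overlap rests on that UMI. In the other nuclei 3 of the 9 glucocorticoid response genes lay higher without overlap (4.93% of all genes there). Summed over the 12 genes of that list, the other nuclei averaged 661 CPM in CON and 1040 CPM in SAP. In the macrophage-marker nuclei these sums overlapped, at 694, 619 and 865 CPM in CON and 603, 1646 and 954 CPM in SAP. All 7 tested cell cycle genes lay below 0, with a median of -0.81, and Kif11 and Pola1 lay lower without overlap. Kif11, a mitotic motor, was at 81.6, 211 and 53.3 CPM in CON and 0, 16.0 and 40.4 CPM in SAP, and at 80.2, 119 and 76.4 and 30.2, 13.5 and 72.9 CPM in the other nuclei. A single UMI in SAP replicate 1 is worth 67.0 CPM, above CON replicate 3, so that the lack of overlap of Kif11 rests on 0 UMIs there.

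**Figure D4:**
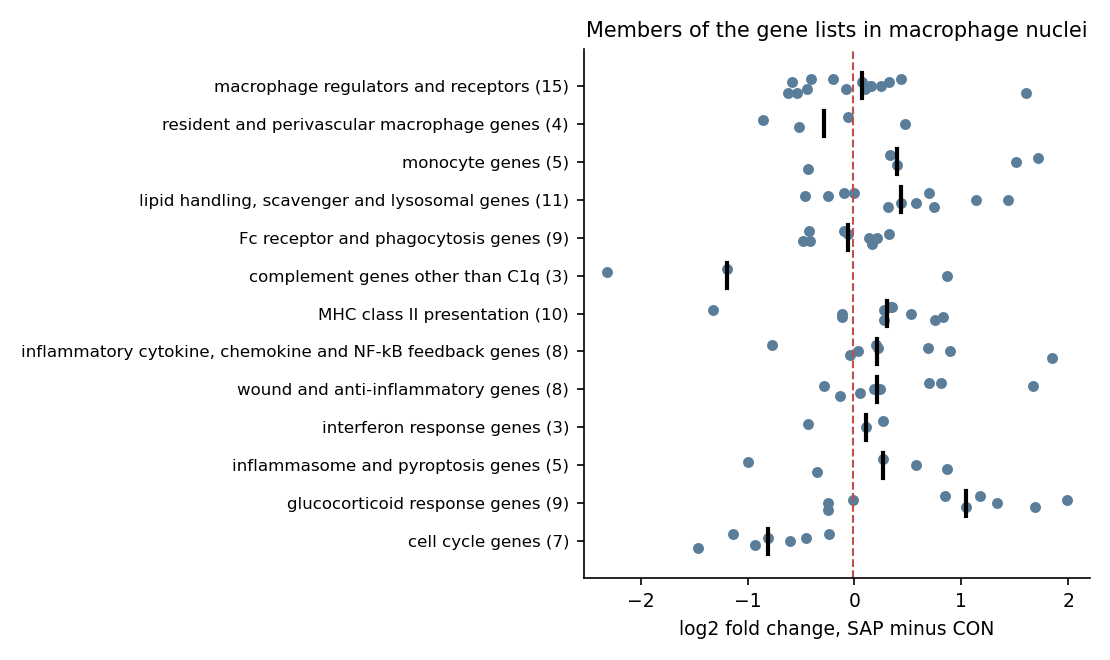
Log2 fold changes (SAP minus CON) of the tested genes of 13 lists in the macrophage-marker nuclei, with the number tested in parentheses. Each point is a gene, black bars are list medians and the dashed line is the median of all genes (-0.01). No gene shown was called, and the glucocorticoid list has a median of 1.04 and the cell cycle list one of -0.81.

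MHC class II genes, through which macrophages present antigen to helper T cells, were measured both as a share of nuclei and as levels. The list of 13 genes of class II presentation also holds Ctss, Cd80 and Cd86. After thinning, 67.6%, 79.4% and 75.0% of macrophage-marker nuclei held at least 2 genes of this list in CON and 100%, 86.4% and 80.1% in SAP. The groups did not overlap, with a difference of 14.8 percentage points (exact two-sided permutation test, p = 0.1, the smallest 3 against 3 can give). The 100% of SAP replicate 1 is 7 of 7 nuclei, and without that library the difference was 9.25 points. With at least 3 genes of the list the groups overlapped (exact two-sided permutation test, p = 0.2). In the other nuclei the shares were 33.7%, 17.8% and 40.4% in CON and 66.9%, 84.9% and 60.2% in SAP. Without thinning the shares of the macrophage-marker nuclei overlapped, at 95.9%, 88.2% and 96.1% in CON and 100%, 100% and 94.3% in SAP.

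Cd74, the invariant chain, was at 844, 1042 and 978 CPM in CON and 1205, 1398 and 1047 CPM in SAP. It lay without overlap but was not called (log2 fold change 0.35, SE 0.38, adjusted p = 0.990, edgeR), and in the other nuclei it was at 671, 257 and 664 CPM in CON and 1424, 1629 and 939 CPM in SAP. RT1-Da, RT1-Db1 and RT1-Ba, chains of the class II molecules, had log2 fold changes of 0.28, 0.34 and 0.53. Ciita went the other way, at 125, 468 and 219 CPM in CON and 67.0, 47.9 and 114 CPM in SAP (log2 fold change -1.32, SE 0.45, adjusted p = 0.493, edgeR), and in the other nuclei it was at 36.7, 58.6 and 69.0 and at 39.4, 98.5 and 104 CPM. Of the 10 tested genes of the list Cd74 alone lay higher and Ciita alone lower without overlap in the macrophage-marker nuclei, while in the other nuclei 6 lay higher (4.93% of all 6069 genes there) and 0 lower (4.45%) without overlap. The Ciita value of SAP replicate 1 is 1 UMI, under the floor of 3, so that its lack of overlap rests on that UMI.

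**Figure D5:**
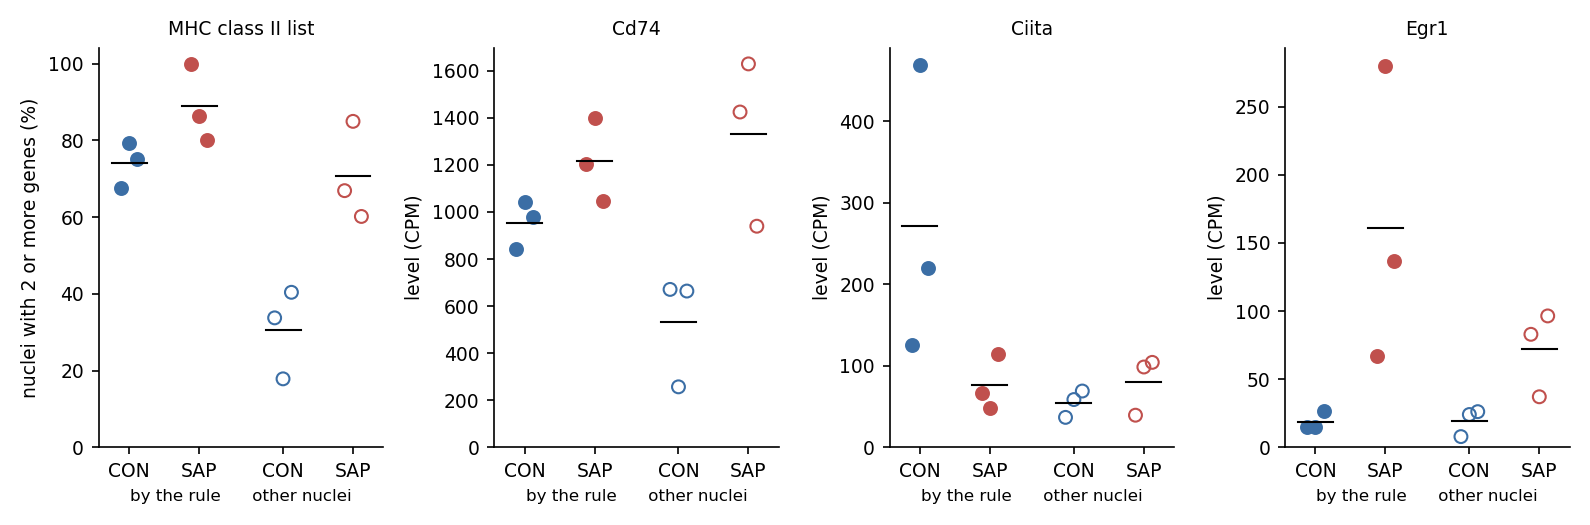
Share of nuclei with at least 2 genes of the MHC class II presentation list after thinning (percent), and Cd74, Ciita and Egr1 levels (CPM), per library. Symbols are filled for macrophage-marker nuclei and open for the other nuclei, with group means as lines. Ciita is at 125 to 468 CPM in CON and 47.9 to 114 CPM in SAP among macrophage-marker nuclei, and Egr1 at 14.8 to 26.7 and 67.0 to 280 CPM. In SAP replicate 1 the values of Ciita and Egr1 in macrophage-marker nuclei are 1 UMI each.

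The other states overlapped between the groups. At least 2 monocyte genes were found after thinning in 14.2%, 29.4% and 21.1% of macrophage-marker nuclei in CON and 28.6%, 27.3% and 39.8% in SAP (exact two-sided permutation test, p = 0.3). Inflammatory genes were found so in 20.3%, 23.5% and 25% and in 57.1%, 18.2% and 36.4% (exact p = 0.4). Genes of resident macrophages were found in 18.9%, 5.88% and 28.9% and in 14.3%, 13.6% and 22.7% (exact p = 1), and lipid and scavenger genes in 22.3%, 26.5% and 44.7% and in 28.6%, 18.2% and 50.6% (exact p = 0.9). Interferon response genes were found in 16.2%, 26.5% and 26.3% and in 0%, 22.7% and 26.1% (exact p = 0.5), and cell cycle genes in 27.7%, 17.6% and 6.58% and in 14.3%, 4.55% and 13.6% (exact p = 0.4). Over these 6 lists and MHC class II, 7 tests were made, and the lowest p adjusted over them was 0.7 (exact permutation tests, Benjamini-Hochberg). The value of 0% in SAP replicate 1 is 0 of 7 nuclei.

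Whether the macrophage-marker nuclei changed unlike the other nuclei of the same rats was tested as an interaction over all 6069 genes. No gene was called (0%), with 189 at an unadjusted p under 0.05 (3.11%), and DESeq2 called 1. St8sia6, a sialyltransferase gene, had a large estimate. It was at 194, 242 and 299 CPM in CON and 268, 47.9 and 46.8 CPM in SAP among macrophage-marker nuclei, and at 189, 330 and 307 CPM in CON and 5.78, 1.56 and 12.6 CPM in SAP among the other nuclei, an interaction of 2.97 (SE 0.64, adjusted p = 0.632, edgeR). It was called in 7 of 11 alternatives, among them DESeq2 and the fits without SAP replicate 2 (adjusted p = 0.0120) and SAP replicate 3 (adjusted p = 0.00208), with estimates from 2.64 to 5.21. St8sia6 was not called without SAP replicate 1, nor in any fit that left out a CON replicate. Its 268 CPM in SAP replicate 1 comes from 7 nuclei, where 1 UMI is worth 67.0 CPM. Ciita had an interaction of -2.06 (SE 0.45, adjusted p = 0.475, edgeR), called in 4 of 11 alternatives, whose estimates ran from -2.90 to -1.69, and Itgb5, an integrin chain, one of -1.96, also called in 4 of 11 alternatives. Elmo1, which had -1.23, was called in 2, without nuclei of mixed markers (adjusted p = 0.0254, edgeR) and in nuclei under 4000 UMIs (adjusted p = 0.0220, edgeR). Plaur and Tbxas1 on the lower side and Txn1, Slc39a10, Tmed9 and Eif5a on the higher side also had small p and were not called.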

How the data were processed

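UMIs per gene and barcode were counted by the authors with dnbc4tools on DNBelab C libraries, and the deposited count tables hold whole, unnormalized numbers for 90461 barcodes. The submitters' processing notes name mRatBN7.2 and Seurat 4.3.0, and the file headers name PISA 1.0. Kept were nuclei of 1200 or more UMIs and 500 or more genes with no more than 5% of UMIs from mitochondrial genes. The members and gene lists were chosen with earlier results of these data known. Passing UMIs summed to 28771508, 11402966 and 19738010 in CON and 5549260, 15490877 and 19435288 in SAP, and exact binomial intervals cover counting error only. Counts of libraries of 1 group differed far beyond counting noise (chi-square per degree of freedom 46.2 to 326), so no library was a copy.

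Counts were summed per library over the nuclei of the rule and compared between 3 CON and 3 SAP rats with edgeR 4.0.16 in R 4.3.3 (limma 3.58.1), by a robust quasi-likelihood fit after filterByExpr and TMM scaling, with Benjamini-Hochberg adjustment over 6069 genes. The standard error is the fold change divided by the square root of F. The interaction was fitted over 12 sums with the library as a block. DESeq2 1.42.0, the tool of the study for sums per animal, was an alternative. Printed CPM values are scaled by library totals alone. The fits were tested on simulated data. States were shares of nuclei with at least 2 genes of a list after thinning to 1200 UMIs, compared by exact permutation over rats.

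Sub-clusters used scanpy 1.11.5 and leidenalg 0.10.2 under Python 3.11.15 (2000 variable genes less rule and mitochondrial genes, 15 components, 15 neighbours, resolution 0.8). Doublets were not called. Named were the 7 rule genes, the 3 list members with the most CPM, up to 10 called genes per direction or, with under 5 called, the 5 with the smallest p at 100 CPM or more, and the 15 genes with the highest ratio to other nuclei. Genes of the full lists beyond these, and leading genes of sub-clusters, were chosen after their values were seen. Strand use in counting is not given in the sources used here. The other assays of the study were not analysed here. Some genes that the naming rule or the lists include are not reported here.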

Additional observations from a re-analysis of the deposited data

How the results depend on the processing

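The difference in the share of macrophage-marker nuclei turned to 0.0223 percentage points with at least 2 rule genes, and ran from -0.72 to 0.284 when each library was left out, positive without CON replicate 1 (0.216), SAP replicate 1 (0.284) or SAP replicate 2 (0.209). Among state shares, the resident list turned to 1.78 points without thinning and to 3.33 without nuclei of mixed markers, and ran from -7.05 to 4.48 over left-out libraries. The lipid and scavenger list turned to -9.30 without mixed nuclei and ran from -7.79 to 8.402, and the interferon list turned to 5.86 without thinning and ran from -11.6 to 1.43. The other 4 state lists kept their direction but not their size. With at least 3 genes the inflammatory difference went from 14.3 to 3.35, the monocyte one from 10.3 to 3.14 and the cell cycle one from -6.49 to -1.27, and without thinning MHC class II went from 14.8 to 4.69. The other differences grew without thinning, the inflammatory one to 23.6, the monocyte one to 20.6 and the cell cycle one to -10.9. Over left-out libraries the inflammatory list ran from 4.34 (without SAP replicate 1) to 23.8 (without SAP replicate 2), the cell cycle list from -11.9 (without CON replicate 3) to -1.29 (without CON replicate 1), the monocyte list from 6.37 (without SAP replicate 3) to 14.3 and MHC class II from 9.25 (without SAP replicate 1) to 19.2. None of these tests could pass 0.05.

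Genes called higher in SAP, 1 in the fit reported, were 4 with DESeq2, 2 with library totals alone and 28 with no filter beyond 1 count. They were 0 with at least 2 rule genes, with at least 4, without mixed nuclei and in nuclei under 4000 UMIs, and 0 to 15 over left-out libraries. Genes called lower were 7 with no filter, against 0, and 0 to 3 over left-out libraries. With mitochondrial UMIs limited to 1%, 1 gene was called, and Egr1 was not tested, nor was it with at least 4 rule genes, without mixed nuclei, under 4000 UMIs or without SAP replicate 3. Interaction calls, 0 in the fit reported, were 15 with no filter, 7 with library totals, 1 with DESeq2, 6 without mixed nuclei and 6 in nuclei under 4000 UMIs, and 0 to 4 over left-out libraries. The alternatives without mixed nuclei (epithelium not counted) and under 4000 UMIs were chosen after seeing the data. Leaving out epithelial mixtures too left 21 nuclei, which could not be fitted. Of 179 alternative values for named genes 155 kept their side of the threshold and 0 changed sign.

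With the replicate number as a block, 3 genes were called higher (Apoa1, Itln1 and Lyz2) and Egr1 was not (log2 fold change 2.71, adjusted p = 0.0596, edgeR). Deviations of same-numbered libraries correlated at 0.0099, 0.0666 and 0.0756 over 2614 genes, so the libraries share only a number. The small sums of SAP replicate 1 (7 nuclei) and CON replicate 2 (34 nuclei) limit the precision of the levels, and the causes of these shifts were not tested.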

Other observations

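Further macrophage lists were counted in the same comparison, and no member was called. Of 18 wound and anti-inflammatory genes 8 were tested, with a median log2 fold change of 0.21. Hif1a, the oxygen-sensing transcription factor, was at 89.9, 121 and 104 CPM in CON and 268, 192 and 128 CPM in SAP, and Socs3, a feedback inhibitor of cytokine signalling, at 18.5, 0 and 23.7 and at 134, 55.9 and 56.0 CPM. Both lay higher in SAP without overlap, as did 5.92% of all genes. The Socs3 value of SAP replicate 1 lies under the floor of 3 UMIs, which is 201 CPM in that library. Of 12 inflammasome and pyroptosis genes 5 were tested, with a median of 0.27. Nlrc4, a sensor of bacterial flagellin, was at 116, 242 and 127 CPM in CON and 67.0, 71.9 and 70.7 CPM in SAP, lower without overlap (8.29% of all genes, SAP replicate 1 at 1 UMI), and in the other nuclei it was at 97.0, 199 and 154 and at 85.8, 166 and 88.8 CPM. Of 23 interferon response genes 3 were tested, with a median of 0.11. Of 13 complement genes other than C1q 3 were tested, with a median of -1.19, and Cd55, a complement inhibitor on the cell surface, lay higher in SAP without overlap at 67.0, 71.9 and 88.1 CPM against 38.01, 15.1 and 65.2 CPM, where the value of SAP replicate 1 is 1 UMI.

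Among markers of other classes in the same sums, all 15 epithelial genes were tested, 12 above and 3 below 0, with a median of 0.39. The 8 smooth muscle genes had a median of -0.64, the 6 tested T cell genes one of 0.05 and the 3 tested B and plasma cell genes one of 0.23. S100a8, a neutrophil and monocyte gene, was at 3.71, 0 and 2.96 CPM in CON and 268, 16.0 and 599.5 CPM in SAP, from 4, 0 and 1 and 4, 2 and 653 UMIs in 21 of the 463 nuclei, with all SAP libraries above all CON libraries. In the other nuclei it was at 35.1, 0.529 and 3.81 CPM in CON and 486, 3.64 and 60.3 CPM in SAP, where the groups overlapped.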
